A study of Mus musculus with 9 samples.

Results

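Complex I (NADH:ubiquinone oxidoreductase) is the entry point of the mitochondrial respiratory chain. It passes electrons from NADH to ubiquinone and pumps protons across the inner membrane. Its matrix arm holds an N module, which oxidises NADH, and a Q module, which reduces ubiquinone, and its membrane arm is divided into a proximal and a distal part. Most subunits are made in the cytosol from nuclear genes and imported, while the hydrophobic core of the membrane arm is translated inside the mitochondrion from mitochondrial DNA. MPTP is a toxin precursor that is oxidised in glia to MPP+. MPP+ is carried into dopamine neurons by their transporter and inhibits complex I.

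The 43 genes described here came from a list of names for subunits of this complex. They are 36 nuclear Nduf genes, with Ndufa4 (now assigned to complex IV) counted among them, and the 7 mitochondrially encoded mt-Nd genes. They were 43 of the 27339 genes in the table, and all 43 were found and passed the filter on low values. The samples were 9 bulk RNA-seq libraries of mouse substantia nigra pars compacta in 3 groups of 3. The MPTP_MCTKD group (treatment MPTP + MCT-KD, called the diet group) received MPTP and a medium-chain triglyceride ketogenic diet, the MPTP group received MPTP, and the Ctrl group is labelled only as control. All 3 groups share the tissue and the library kit. Strain, sex, age, MPTP dose, the timing of the diet, what the controls were given and whether a library is 1 animal or a pool are not stated in the labels. Nothing in the labels says that the libraries of a group came from separate mice, so the p-values speak for the spread of these libraries, which may be technical.

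The libraries held 33187343 to 40001344 counts. Th (tyrosine hydroxylase) and Slc6a3 (the dopamine transporter), markers of the labelled tissue, were detected in every library. Th averaged 61.7 ± 15.2 CPM (counts scaled to a common library size) in the diet group, 62.2 ± 6.48 in the MPTP group and 86.8 ± 19.8 in Ctrl (SD, n = 3 each). Slc6a3 averaged 109 ± 30.3 CPM in the diet group, 112 ± 17.0 in the MPTP group and 156 ± 26.1 in Ctrl. In bulk tissue, fewer cells of a type and less RNA per cell cannot be told apart. Of 14949 genes tested with edgeR's quasi-likelihood test, 2 passed a Benjamini-Hochberg adjusted p of 0.05 for MPTP against Ctrl, and none in either comparison of the diet group. At an unadjusted p under 0.05 the diet group held 562 higher and 601 lower genes against MPTP, and DESeq2 called 19 genes there and 16 against Ctrl.

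No complex I gene passed the threshold in any comparison, with edgeR, DESeq2 or limma or without any single library. The share of all genes called was 0.0134% for MPTP against Ctrl, 0% for the diet group against MPTP and 0% for the diet group against Ctrl. The median 95% interval of a nuclear member's log2 fold change reached 0.15 to either side of the estimate, a change of 11%. For an mt-Nd gene it reached 0.17, a change of 12.4%. The intervals therefore bound the differences of most members between these sets of libraries to small sizes, as the plot of fold changes shows. They do not bound a change limited to some cells of the bulk tissue.

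**Figure D1:**
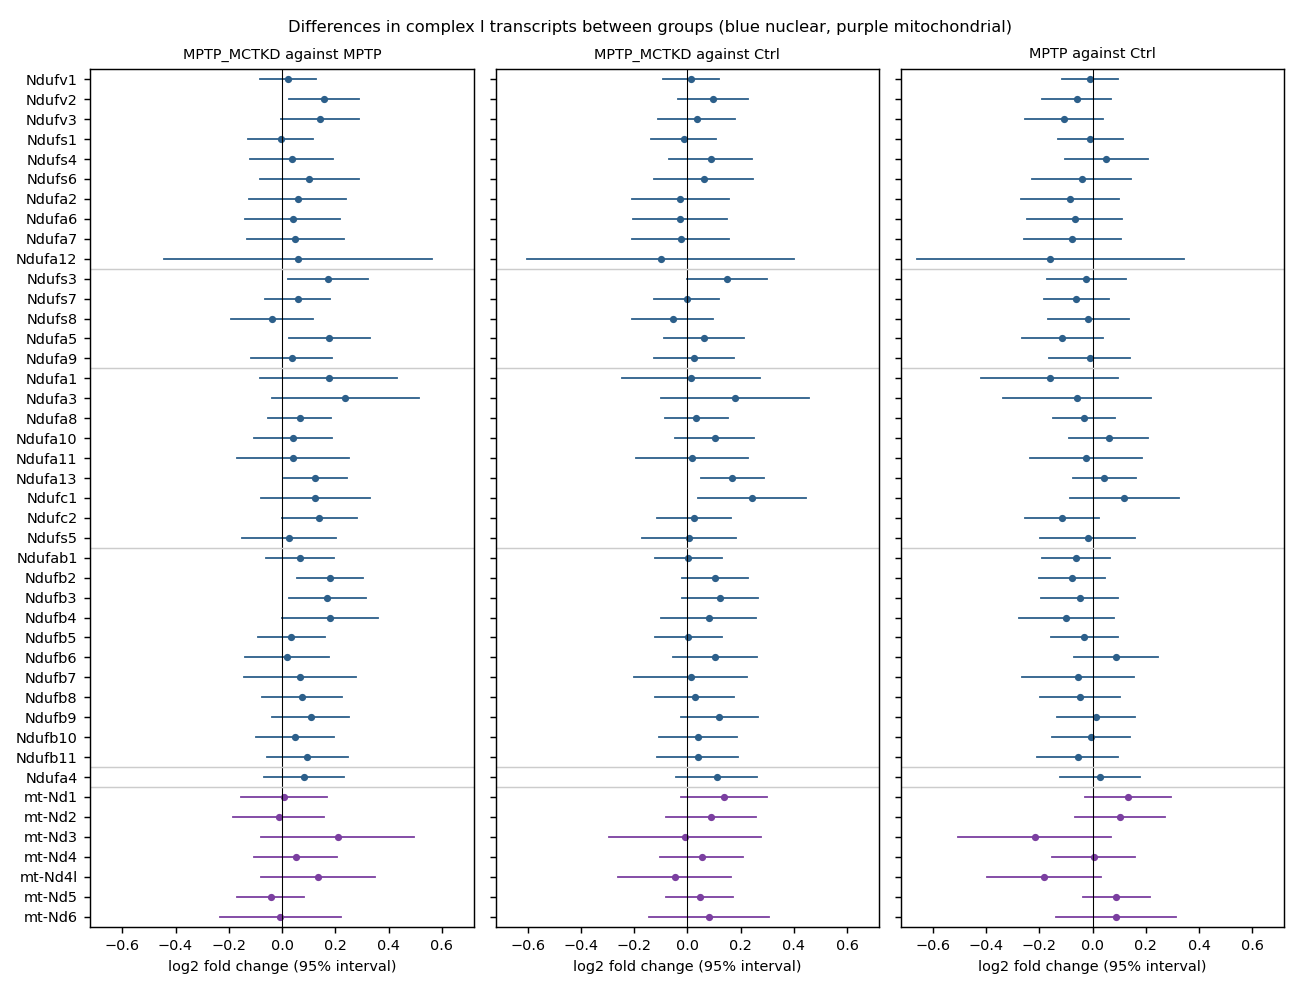
Log2 fold change (points) and 95% interval (lines) of the 36 nuclear members (blue) and 7 mt-Nd genes (purple) in each comparison, from edgeR with 3 libraries a group; grey lines separate the N module, Q module, proximal arm, distal arm, Ndufa4 and the mt-Nd genes. Of the nuclear members, 34 of 36 lay above 0 in the diet group against MPTP and 29 of 36 below 0 in MPTP against Ctrl, and most intervals span 0.

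The places of the mitochondrial genes are given first because some of them overlap, and reads at such borders bear on the values. On GRCm38, mt-Nd1 lies at chrM:2751-3707, mt-Nd2 at chrM:3914-4951, mt-Nd3 at chrM:9459-9806, mt-Nd4l at chrM:9877-10173, mt-Nd4 at chrM:10167-11544 and mt-Nd5 at chrM:11742-13565, all on the plus strand. On the minus strand, mt-Nd6 lies at chrM:13552-14070. Each is a single coding exon. The open reading frames of mt-Nd4l and mt-Nd4 overlap by 7 bases on the same strand and share an RNA, shown here as the last 30 bases of mt-Nd4l (chrM:10144-10173) and the first 30 of mt-Nd4 (chrM:10167-10196), with the shared bases in capitals.
mt-Nd4l: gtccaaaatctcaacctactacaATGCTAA
mt-Nd4: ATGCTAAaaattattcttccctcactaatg
The ends of mt-Nd5 and mt-Nd6 overlap by 14 bases on opposite strands. No source used here gives the strand setting of the authors' counting, so reads of mt-Nd6 cannot be told apart from antisense RNA of the opposite strand.

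The nuclear members were spread over 15 chromosomes, with 2 on the X (Ndufa1, chrX:37187588-37191163, and Ndufb11, chrX:20615326-20617619) and at most 5 on any 1 chromosome. Of the 36, 33 had a RefSeq promoter, 35 promoters in all, covering 250 bases before to 50 after the start on GRCm38.p6. The motif of YY1, a factor known to bind near the starts of many genes of oxidative phosphorylation, was searched as AAGATGGC on both strands. It stood in 7 of the 35 member promoters (20.0%), against 4.0% of the promoters of the genes tested and 2.75% of all mouse promoters in the table. In each of the 7 it began 22 to 38 bases after the start, on the gene's own strand. The letters searched contain ATG, and whether this is the start codon of these genes was not tested. These windows of 30 bases, 5′ to 3′ on the gene's strand, show the motif with the largest excess over its background among those searched, with the motif in capitals.
Ndufa3 (chr7:3617384-3617413, plus strand): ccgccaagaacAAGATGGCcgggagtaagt
Ndufa9 (chr6:126849097-126849126, minus strand): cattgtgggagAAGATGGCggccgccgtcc
Ndufb8 (chr19:44555393-44555422, minus strand): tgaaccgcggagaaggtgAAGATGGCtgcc
Ndufc1 (chr3:51408915-51408944, minus strand): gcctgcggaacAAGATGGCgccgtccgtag
Ndufs4 (chr13:114388045-114388074, minus strand): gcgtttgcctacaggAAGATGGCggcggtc
Ndufs6 (chr13:73328433-73328462, minus strand): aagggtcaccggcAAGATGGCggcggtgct
Ndufs7 (chr10:80249462-80249491, plus strand): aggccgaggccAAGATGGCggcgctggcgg

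Other motifs, also searched on both strands, were closer to their background. NRF1, a regulator of nuclear genes for mitochondrial proteins, was searched as GCATGCGC, most of its palindromic site. It stood in 3 member promoters (8.57%), against 4.85% of the promoters of tested genes and 2.71% of all mouse promoters. The ETS motif CCGGAAG, bound by GABPA among other factors, stood in 4 (11.4%, against 15.6% and 8.86%). TATAAA stood in 5 promoters of 4 genes (14.3%, against 7.03% and 13.6%). The median GC content of the member promoters was 59.0%, against 60.7% for the promoters of tested genes. A match is a description of letters and not evidence of binding. Windows of 60 bases are shown around 1 of the 2 overlapping NRF1 matches of Ndufa11, an accessory subunit of the proximal arm, and 1 of the 2 ETS matches of Ndufs3, a core subunit of the Q module. Each is the match on the gene's own strand, in capitals; the other match of each gene is on the opposite strand.
Ndufa11 (chr17:56717678-56717737, plus strand): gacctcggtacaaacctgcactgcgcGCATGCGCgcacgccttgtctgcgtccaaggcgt
Ndufs3 (chr2:90904722-90904781, minus strand): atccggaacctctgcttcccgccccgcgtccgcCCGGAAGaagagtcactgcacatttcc

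Levels are compared between genes per length, as the deposited FPKM (fragments per kilobase of transcript, scaled to the fragments of the library). The mt-Nd genes were far above every nuclear member. Over the 9 libraries mt-Nd1 averaged 5567 FPKM, mt-Nd2 4107, mt-Nd4 3923, mt-Nd5 2688, mt-Nd6 2629, mt-Nd4l 2426 and mt-Nd3 639. The nuclear members ran between 18.8 FPKM (Ndufc1, a small proximal arm subunit) and 186 FPKM (Ndufa4), with a median of 60.9, a 9.89-fold range against an 8.71-fold range among the mt-Nd genes. Ndufa4, long listed with complex I, is now assigned to complex IV. The N module had a median of 62.3 FPKM over 10 members, the Q module 59.4 over 5, the proximal arm 69.4 over 9 and the distal arm 55.6 over 11, so no nuclear module stood apart. The ratio of the median mt-Nd level to the median nuclear level was 40.4, 41.3 and 46.2 in the diet libraries, 45.3, 48.0 and 47.5 in the MPTP libraries while the Ctrl libraries had 47.8, 41.8 and 44.7, and the groups overlapped. Together the mt-Nd genes took 2.11% to 2.5% of the counts of a library and the nuclear members 0.216% to 0.241%.

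**Figure D2:**
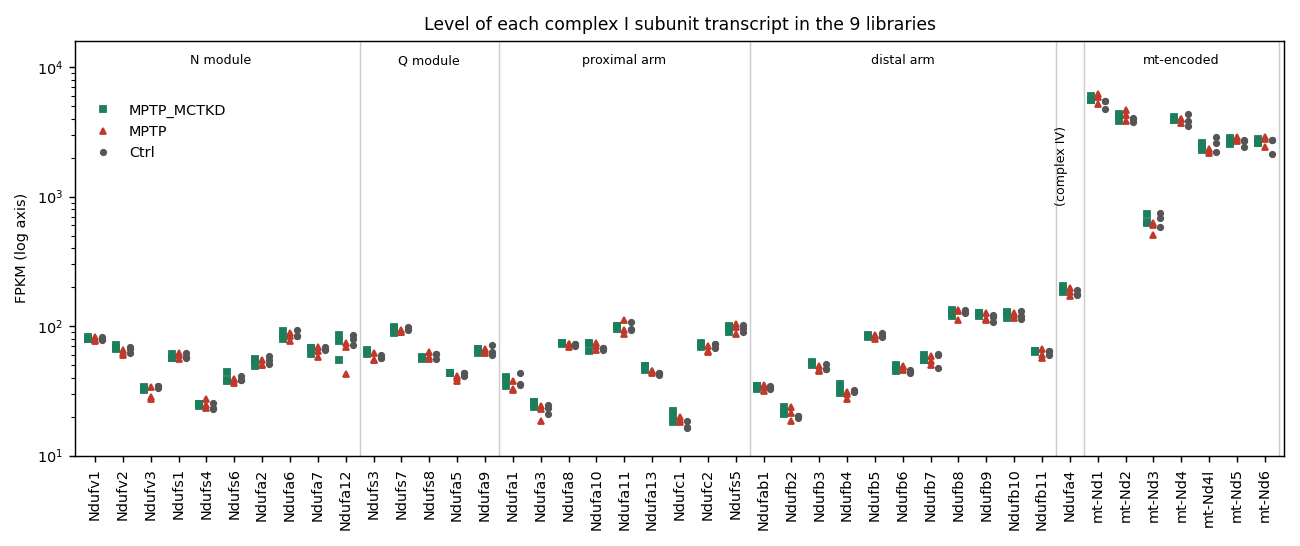
FPKM (log axis) of each complex I subunit transcript in each library, by module, for the diet group (green squares), MPTP (red triangles) and Ctrl (grey circles), 3 libraries each. The mt-Nd genes lie between 508 and 6169 FPKM, above all nuclear members, and Ndufa12 has single low libraries in the diet and MPTP groups.

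The members varied little between libraries of 1 group. The within-group SD of the log2 level had a median of 0.09 over the nuclear members and 0.12 over the mt-Nd genes. It was lowest for Ndufa13 (0.04), an accessory subunit of the proximal arm also known as GRIM-19, and highest for Ndufa12 (0.29), an accessory subunit of the N module. Ndufa12 had 54.7, 38.9 and 59.5 CPM in the diet group, 61.0, 48.4 and 37.6 in the MPTP group and 56.2, 59.2 and 48.6 in Ctrl. Its spread came from a low library in each of the diet and MPTP groups, and no group stood apart from the others. The counts and FPKM of Ndufa12, Ndufb2 and Ndufv3 implied transcript lengths that differed between libraries by up to 1.32 times, so their values depend on which unit is read.

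MPTP against Ctrl asks whether exposure to the toxin changed transcripts of its target complex. Of the 36 nuclear members 29 were below 0 in log2 fold change (80.6%, against 50.4% of all genes tested), with a median of -0.04, or -3.05%, against -0.00092 for all genes. None had an unadjusted p under 0.05 with edgeR, while 2.69% of all genes were lower and 2.68% higher at that level. The lowest adjusted p of a nuclear member was 0.915 (edgeR). With limma on log2 FPKM, 2 members, Ndufa5 and Ndufv3, had an unadjusted p under 0.05 on the lower side at each of the 3 pseudocounts (lowest adjusted p 0.838 to 0.841). No share of all genes at that level is given for limma. By module, 9 of 10 N module members, all 5 Q module members, 6 of 9 proximal and 9 of 11 distal members were below 0. The groups did not overlap at Ndufv3, lower in MPTP, and at Ndufa13, higher in MPTP. Each is 2.78% of the nuclear members, against 5.41% of all genes lower and 5.14% higher. The tilt rested on 2 libraries. MPTP 3 was the lowest of the 9 libraries for 24 of the 36 members; without it 15 were below 0, with a median of 0.0082. Without Ctrl 2, 18 were below 0, with a median of 0.0012.

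Among the nuclear core subunits, which include those that carry the redox centres, the groups overlapped throughout. Ndufv1, which binds NADH and the flavin, had 135, 135 and 139 CPM in the MPTP group and 137, 143 and 131 in Ctrl, with a log2 fold change of -0.01 (95% interval -0.11 to 0.10). Ndufv2, an iron-sulfur subunit beside it, had 116, 106 and 107 CPM in the MPTP group and 109, 122 and 112 in Ctrl, a difference of -0.06 (-0.19 to 0.07). Ndufs1, the largest iron-sulfur subunit of the N module, had 166, 152 and 165 CPM in the MPTP group and 155, 172 and 158 in Ctrl, a difference of -0.01 (-0.13 to 0.11). For each of these N module subunits the interval reached no further than 0.19 below 0. In the Q module, Ndufs3 had 69.0, 60.2 and 58.3 CPM in the MPTP group and 62.6, 66.7 and 61.2 in Ctrl, a difference of -0.02 (-0.17 to 0.13). Ndufs7, which holds the iron-sulfur cluster next to ubiquinone, had 76.2, 73.1 and 70.6 CPM in the MPTP group and 74.8, 76.9 and 77.7 in Ctrl, a difference of -0.06 (-0.18 to 0.06). Ndufs8, another iron-sulfur subunit, had 64.9, 58.1 and 55.4 CPM in the MPTP group and 62.1, 62.9 and 55.5 in Ctrl, a difference of -0.02 (-0.17 to 0.14). The 3 Q module subunits each had overlapping groups, and edgeR's adjusted p was at least 0.947 for all 6 core subunits.

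The accessory subunits with the smallest p are those nearest to a difference. Ndufc2, of the proximal arm, had 46.5, 50.2 and 44.5 CPM in the MPTP group and 52.7, 48.9 and 51.3 in Ctrl, a log2 fold change of -0.12 ± 0.07 (SE; unadjusted p = 0.0998, edgeR adjusted p = 0.915). Ndufa5, an accessory subunit of the Q module, had 36.1, 35.1 and 32.2 CPM in the MPTP group and 35.5, 39.2 and 37.2 in Ctrl, a log2 fold change of -0.11 ± 0.07. Ndufv3, a small N module subunit, had 30.2, 31.1 and 29.7 CPM in the MPTP group and 33.3, 32.3 and 32.4 in Ctrl, a log2 fold change of -0.11 ± 0.07. Of these only Ndufv3 had groups that did not overlap in CPM, and its FPKM values (27.5, 33.8 and 28.4 in MPTP, 34.6, 33.3 and 34.3 in Ctrl) overlapped. Limma on log2(FPKM + 0.5) gave Ndufv3 a log2 fold change of -0.19. Ndufa1, at the foot of the membrane arm, had 16.8, 14.1 and 14.1 CPM in the MPTP group and 19.3, 15.8 and 15.3 in Ctrl, a log2 fold change of -0.16 ± 0.12. On the higher side, Ndufc1 had 26.2, 23.7 and 24.0 CPM in the MPTP group and 22.1, 24.8 and 21.2 in Ctrl, a log2 fold change of 0.12 ± 0.09. Ndufb6, of the distal arm, had 34.2, 34.3 and 30.8 CPM in the MPTP group and 30.2, 31.8 and 31.6 in Ctrl, a log2 fold change of 0.09 ± 0.07. These groups overlapped, and every adjusted p was above 0.9. Ndufa10, a proximal arm subunit with a nucleoside kinase fold, had 159, 150 and 136 CPM in the MPTP group and 144, 147 and 136 in Ctrl, a log2 fold change of 0.06 ± 0.07. Ndufa13 had 59.8, 57.6 and 57.8 CPM in the MPTP group and 57.2, 56.1 and 56.8 in Ctrl, a log2 fold change of 0.04 ± 0.06. Its groups did not overlap, but the difference was 3.02% and its adjusted p was 0.971.

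The mt-Nd genes did not tilt in 1 direction in MPTP against Ctrl. 5 of the 7 were above 0 and 2 below, with a median of 0.09 (mean 0.0016), and the lowest adjusted p was 0.915 (edgeR). Of these core subunits, mt-Nd2, mt-Nd4 and mt-Nd5 are antiporter-like proton channels, mt-Nd1 borders the ubiquinone site, and mt-Nd3, mt-Nd4l and mt-Nd6 lie between them. mt-Nd1 had 6284, 5939 and 5089 CPM in the MPTP group and 5519, 4873 and 5410 in Ctrl, a log2 fold change of 0.13 (95% interval -0.03 to 0.29). mt-Nd2 had 5116, 4657 and 4055 CPM in the MPTP group and 4436, 4168 and 4287 in Ctrl, a log2 fold change of 0.10 (-0.07 to 0.27). In both, MPTP 1 and MPTP 2 lay above all Ctrl libraries and MPTP 3 did not. mt-Nd5 had 5600, 5373 and 4985 CPM in the MPTP group and 5275, 4689 and 5047 in Ctrl, a log2 fold change of 0.09 (-0.04 to 0.21). mt-Nd6 had 1584, 1526 and 1295 CPM in the MPTP group and 1486, 1180 and 1479 in Ctrl, a log2 fold change of 0.09 (-0.14 to 0.31). mt-Nd4 had 5878, 5812 and 5201 CPM in the MPTP group and 6276, 5109 and 5470 in Ctrl, a log2 fold change of 0.0032 (-0.15 to 0.16). The groups overlapped at these 3 genes. The 2 genes with estimates below 0 were mt-Nd3 and mt-Nd4l. mt-Nd3 had 225, 230 and 181 CPM in the MPTP group and 276, 253 and 210 in Ctrl, a log2 fold change of -0.22 (-0.50 to 0.07). mt-Nd4l had 738, 710 and 665 CPM in the MPTP group and 903, 817 and 679 in Ctrl, a log2 fold change of -0.18 (-0.40 to 0.03). Their groups overlapped, since Ctrl 3 was low at both. Without MPTP 3 the median of the 7 became 0.14 and mt-Nd1, mt-Nd2 and mt-Nd5 had unadjusted p under 0.05 on the higher side (lowest adjusted p 0.518), while without Ctrl 2 the median was -0.01. On the lower side, mt-Nd3 and mt-Nd4l had unadjusted p under 0.05 without Ctrl 3 (lowest adjusted p 0.956) and with DESeq2 on all libraries (0.820). The share of all genes at that level is given only for edgeR on all libraries (2.68% higher, 2.69% lower). The counts from these other fits therefore have no background of their own.

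**Figure D3:**
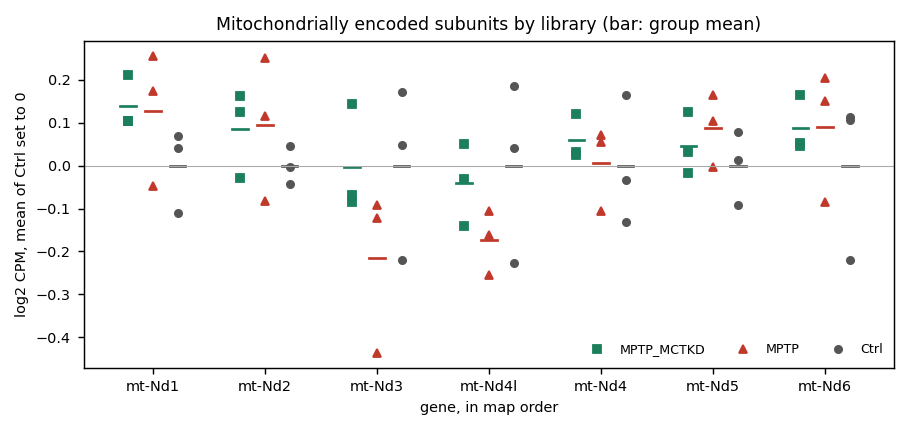
Log2 CPM of the 7 mt-Nd genes in each library, with the mean of Ctrl set to 0, for the diet group (green squares), MPTP (red triangles) and Ctrl (grey circles), 3 libraries each; bars are group means and genes stand in map order. MPTP 1 and 2 are high at mt-Nd1 and mt-Nd2, and at mt-Nd3 MPTP 3 (181 CPM) is the lowest library.

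The diet group against MPTP asks whether the diet altered these transcripts in mice that received the toxin. It shares the MPTP libraries with the comparison above, so a low MPTP library moves the 2 in opposite directions. Of the 36 nuclear members, 34 were above 0, where 49.8% of all genes were below, with a median of 0.07 (4.78%) against 0.00056 for all genes. All 9 proximal and all 11 distal members were above 0, as were 9 of 10 in the N module and 4 of 5 in the Q module. 6 had an unadjusted p under 0.05 on the higher side (3.76% of all genes did) and none on the lower side (4.02%), and the lowest adjusted p was 0.593 (edgeR). The groups did not overlap in CPM at 7 members, all higher in the diet group (19.4%, against 6.64% of all genes higher and 7.1% lower): Ndufb2, Ndufv2, Ndufb3, Ndufa5, Ndufa13, Ndufv3 and Ndufa8. By FPKM the groups overlapped at Ndufb2 and Ndufv3. The size of the tilt changed with libraries of both groups. Without MPTP 3, 24 of 36 were above 0, with a median of 0.03 and 2 unadjusted p under 0.05, and without MPTP 1 all 36 were above 0, with a median of 0.13 and 10 such p. Without diet 3 the median was 0.11, with 34 above 0 and 7 such p. Without diet 1 or diet 2, 33 were above 0, with medians of 0.06 in both cases and 2 such p each, and without MPTP 2 there were 3. The share of all genes at that level is given only for all libraries, so these counts without a library have no background of their own.

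The members with the smallest p were accessory subunits of both arms and a pair of core subunits. Ndufb2, of the distal arm, had 59.5, 59.5 and 60.8 CPM in the diet group and 54.4, 52.1 and 52.4 in the MPTP group, a log2 fold change of 0.18 ± 0.06 (SE; unadjusted p = 0.00787, edgeR adjusted p = 0.593). By FPKM the same gene had 21.3, 23.7 and 20.98 in the diet group and 23.8, 21.4 and 18.4 in the MPTP group, which overlapped, and limma on log2(FPKM + 0.5) gave 0.06. Counts and FPKM of Ndufb2 thus gave different pictures. Ndufv2 had 120, 128 and 119 CPM in the diet group and 116, 106 and 107 in the MPTP group, a log2 fold change of 0.16 ± 0.06 (unadjusted p = 0.0217, edgeR adjusted p = 0.630). Ndufb3, of the distal arm, had 43.1, 40.9 and 42.3 CPM in the diet group and 37.3, 36.4 and 38.5 in the MPTP group, a log2 fold change of 0.17 ± 0.07. Ndufa5 had 39.3, 39.3 and 38.3 CPM in the diet group and 36.1, 35.1 and 32.2 in the MPTP group, a log2 fold change of 0.18 ± 0.07. At these 3 genes every diet library was above every MPTP library. Ndufs3 had 73.0, 70.7 and 67.5 CPM in the diet group and 69.0, 60.2 and 58.3 in the MPTP group, a log2 fold change of 0.17 ± 0.07. Ndufa13 had 65.5, 64.9 and 60.8 CPM in the diet group and 59.8, 57.6 and 57.8 in the MPTP group, a log2 fold change of 0.13 ± 0.06. Ndufs3 overlapped at MPTP 1, Ndufa13 did not overlap, and both had an adjusted p of 0.630.

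The other core subunits differed less. Ndufv1 had 137, 141 and 137 CPM in the diet group and 135, 135 and 139 in the MPTP group, a log2 fold change of 0.02 (95% interval -0.08 to 0.13). Ndufs1 had 156, 168 and 156 CPM in the diet group and 166, 152 and 165 in the MPTP group, a difference of -0.01 (-0.13 to 0.12). Ndufs7 had 80.0, 77.3 and 71.7 CPM in the diet group and 76.2, 73.1 and 70.6 in the MPTP group, a difference of 0.06 (-0.06 to 0.18). These 3 overlapped. Ndufs8 had 57.0, 59.1 and 57.7 CPM in the diet group and 64.9, 58.1 and 55.4 in the MPTP group, a difference of -0.04 (-0.19 to 0.11), and with Ndufs1 made up the 2 nuclear members below 0. All 7 genes with the YY1 letters were among the 34 members above 0. Nearly all of the 36 nuclear members were, so this does not set the 7 apart.

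The mt-Nd genes had a median log2 fold change of 0.0072 in the diet group against MPTP, with 4 above and 3 below 0 and a lowest adjusted p of 0.720 (edgeR). mt-Nd3 had 231, 234 and 271 CPM in the diet group and 225, 230 and 181 in the MPTP group, a log2 fold change of 0.21 (95% interval -0.08 to 0.50). Its groups did not overlap, but the nearest libraries, diet 1 and MPTP 2, differed by about 1 CPM. Of the 7 mt-Nd genes, 14.3% were higher without overlap, against 6.64% of all genes, and none was lower without overlap (7.1% of all genes). mt-Nd4l had 721, 778 and 822 CPM in the diet group and 738, 710 and 665 in the MPTP group, a log2 fold change of 0.14 (-0.08 to 0.35). mt-Nd4 had 5720, 5696 and 6082 CPM in the diet group and 5878, 5812 and 5201 in the MPTP group, a log2 fold change of 0.05 (-0.11 to 0.21). The groups overlapped at both. The other 4 lay within 0.05 of 0, at 0.0072 for mt-Nd1 (-0.15 to 0.17), -0.01 for mt-Nd2 (-0.18 to 0.16), -0.04 for mt-Nd5 (-0.17 to 0.08) and -0.0068 for mt-Nd6 (-0.23 to 0.22).

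**Figure D4:**
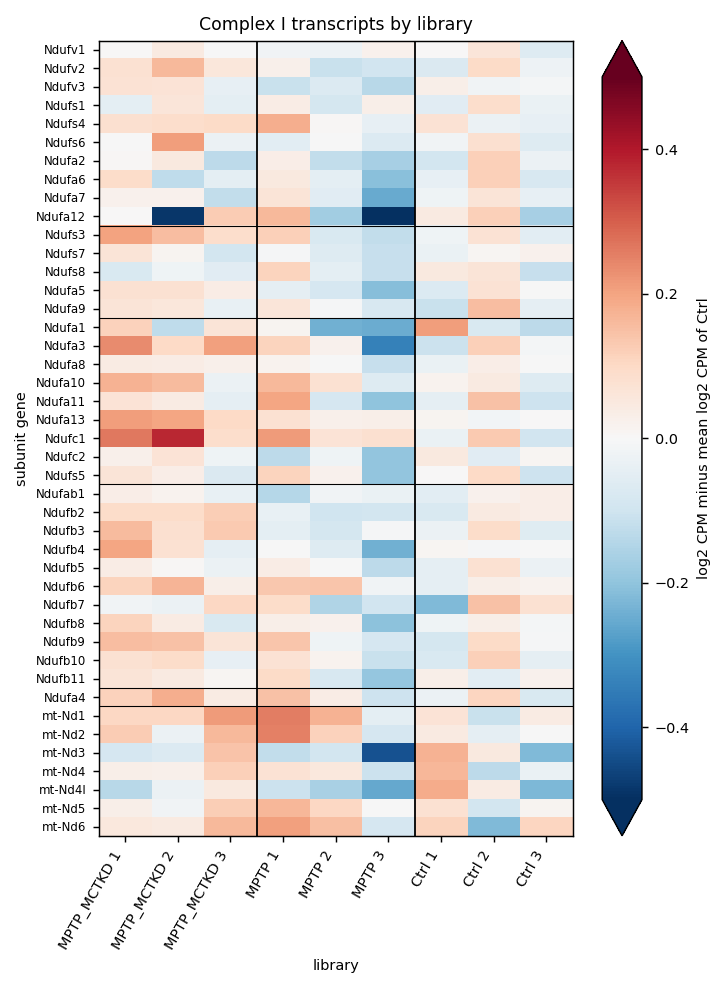
Log2 CPM of each complex I gene minus its mean in Ctrl, in each library (columns: diet group, MPTP, Ctrl), by module (rows; black lines separate modules). The column MPTP 3 is blue over most nuclear members and is the lowest library for 24 of the 36, and the nuclear rows are mostly red in diet 1 and diet 2 and mixed in diet 3, whose nuclear mean is 0.01.

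The diet group against Ctrl gave the nuclear median nearest to 0 of the comparisons. Of the 36 members, 29 were above 0 (50.5% of all genes were below), with a median of 0.03 (2.39%) against -0.0015 for all genes. 2 had an unadjusted p under 0.05 on the higher side (3.36% of all genes did) and none on the lower side, and 5 had groups that did not overlap in CPM, all higher (13.9%, against 6.28% of all genes higher and 6.4% lower): Ndufa13, Ndufs3, Ndufb2, Ndufb6 and Ndufs4. At Ndufb6 the nearest libraries were almost level, with 31.84 CPM in diet 3 and 31.82 in Ctrl 2. By FPKM the groups overlapped at Ndufb6 and Ndufs4. Ndufa13 had 65.5, 64.9 and 60.8 CPM in the diet group and 57.2, 56.1 and 56.8 in Ctrl, a log2 fold change of 0.17 ± 0.06 (SE; unadjusted p = 0.00887, edgeR adjusted p = 0.740). Ndufc1 had 27.2, 29.4 and 24.1 CPM in the diet group and 22.1, 24.8 and 21.2 in Ctrl, a log2 fold change of 0.24 ± 0.09 (unadjusted p = 0.0227, adjusted p = 0.740). Every diet library was above every Ctrl library for Ndufa13, whereas Ndufc1 overlapped at Ctrl 2. Ndufb3 had 43.1, 40.9 and 42.3 CPM in the diet group and 37.9, 41.2 and 37.0 in Ctrl, a log2 fold change of 0.12 ± 0.07. Ndufb2 had 59.5, 59.5 and 60.8 CPM in the diet group and 52.9, 57.5 and 57.1 in Ctrl, a log2 fold change of 0.10 ± 0.06. Neither passed the threshold.

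On the lower side no member came near it. Ndufa12 had a log2 fold change of -0.10 ± 0.21 against Ctrl, with the per-library values given above. Ndufa6, an N module accessory subunit, had 57.2, 49.2 and 51.9 CPM in the diet group and 52.2, 58.3 and 50.8 in Ctrl, a log2 fold change of -0.03 ± 0.08. Ndufa2, another, had 33.0, 34.1 and 29.99 CPM in the diet group and 30.9, 35.7 and 32.2 in Ctrl, a log2 fold change of -0.03 ± 0.08. Ndufa7, of the same module, had 37.7, 37.7 and 34.1 CPM in the diet group and 36.6, 38.8 and 36.1 in Ctrl, a log2 fold change of -0.03 ± 0.08. Their groups overlapped, and each of the 4 changed sign when 1 library was left out. Among the core subunits, the log2 fold change against Ctrl was 0.15 (95% interval -0.00087 to 0.30) for Ndufs3, 0.10 (-0.03 to 0.23) for Ndufv2, 0.01 (-0.09 to 0.12) for Ndufv1, -0.01 (-0.14 to 0.11) for Ndufs1, -0.0032 (-0.12 to 0.12) for Ndufs7 and -0.05 (-0.21 to 0.10) for Ndufs8. No adjusted p among these was below 0.740.

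Of the mt-Nd genes, 5 were above and 2 below 0 in the diet group against Ctrl, with a median of 0.05 and a lowest adjusted p of 0.783 (edgeR). mt-Nd1 had 5649, 5657 and 6093 CPM in the diet group and 5519, 4873 and 5410 in Ctrl, a log2 fold change of 0.14 (95% interval -0.02 to 0.30), and its groups did not overlap. It was 1 of the 7 higher without overlap (14.3%, against 6.28% of all genes), and none was lower without overlap (6.4% of all genes). mt-Nd2 had 4686, 4208 and 4808 CPM in the diet group and 4436, 4168 and 4287 in Ctrl, a log2 fold change of 0.09 (-0.08 to 0.26). mt-Nd5 had 5106, 4938 and 5450 CPM in the diet group and 5275, 4689 and 5047 in Ctrl, a log2 fold change of 0.05 (-0.08 to 0.17). At the last 2 the groups overlapped. mt-Nd6 had 1426, 1418 and 1539 CPM in the diet group and 1486, 1180 and 1479 in Ctrl, a log2 fold change of 0.08 (-0.15 to 0.31). For mt-Nd4, mt-Nd3 and mt-Nd4l the log2 fold changes were 0.05 (-0.10 to 0.21), -0.0083 (-0.29 to 0.28) and -0.05 (-0.26 to 0.16).

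The balance between the 2 genomes was read from the mean log2 CPM of the mt-Nd genes minus that of the nuclear members, in which library scaling cancels. With the Ctrl mean set to 0, it was -0.06, -0.06 and 0.13 in the diet libraries, 0.05, 0.09 and -0.02 in the MPTP libraries, and Ctrl had 0.14, -0.13 and -0.0099. The group means were 0.0028 ± 0.11 in the diet group, 0.04 ± 0.05 in MPTP and 0 by construction in Ctrl, with an SD of 0.14 (n = 3 each). The spread within Ctrl was wider than any difference between groups. The nuclear mean alone was 0.08, 0.06 and 0.01 in the diet libraries, 0.05, -0.04 and -0.13 in the MPTP libraries, and Ctrl had -0.03, 0.06 and -0.04. The mt-Nd mean was 0.02, 0.0045 and 0.14 in the diet libraries, 0.10, 0.05 and -0.15 in the MPTP libraries, and Ctrl had 0.12, -0.07 and -0.05. MPTP 3 was the lowest library on both.

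**Figure D5:**
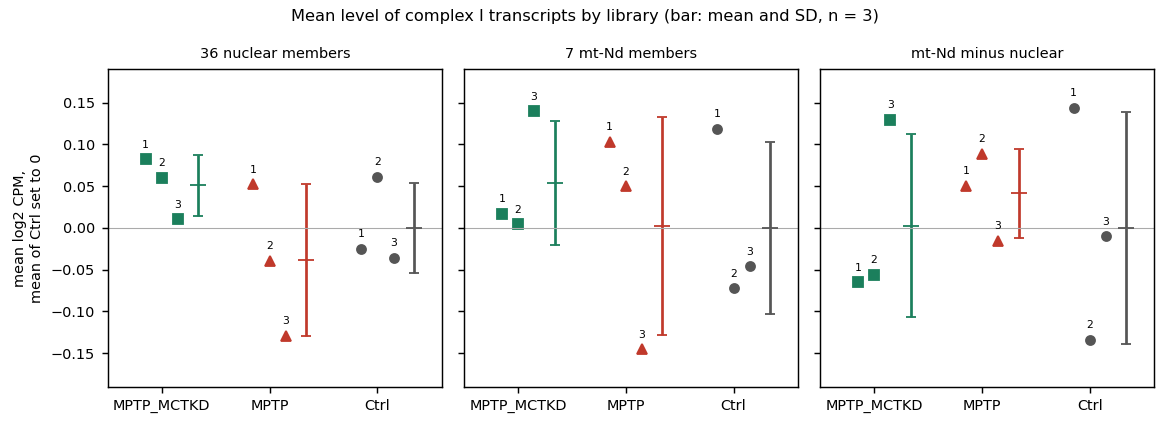
Mean log2 CPM of the 36 nuclear members, of the 7 mt-Nd genes, and their difference, in each library, with the mean of Ctrl set to 0; numbers name the library, and bars beside the points give the group mean and SD (n = 3). The groups overlap in every panel, and MPTP 3 is the lowest library for the nuclear members (-0.13) and for the mt-Nd genes (-0.15).

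Cell type markers moved between the same libraries. The dopamine neuron list (10 of 10 genes detected) had a median log2 fold change of -0.41 in MPTP against Ctrl. In the diet group against Ctrl it was -0.36, and all 10 genes were below 0 in each. With edgeR, 4 had an unadjusted p under 0.05 in the first and 2 in the second. Of all genes tested, 2.69% and 3.36% were lower at that level. The general neuron list had a median of -0.0016 in MPTP against Ctrl and 0.05 in the diet group against MPTP. By library its mean level relative to Ctrl was 0.07, 0.08 and -0.04 in the diet group, 0.08, -0.03 and -0.04 in the MPTP group and -0.02, 0.06 and -0.05 in Ctrl, so that it was high in the libraries (diet 1, diet 2, MPTP 1 and Ctrl 2) in which the nuclear complex I mean was high. The oligodendrocyte list was at 0.21, 0.33 and 0.26 in the diet group and 0.25, 0.26 and -0.04 in the MPTP group. In Ctrl it was at -0.08, 0.13 and -0.05. Against Ctrl, 8 of 8 genes were above 0 in MPTP and in the diet group. With edgeR, 7 of the 8 were higher at an unadjusted p under 0.05 in the diet group, and 2 in MPTP. Of all genes tested, 3.36% and 2.68% were higher at that level against Ctrl. The microglia list was at 0.16, 0.15 and 0.18 in the diet group, 0.15, 0.08 and 0.09 in the MPTP group and -0.09, 0.15 and -0.06 in Ctrl, with 7 of 8 genes above 0 in the diet group against Ctrl, 3 of them at an unadjusted p under 0.05. The astrocyte list was at 0.08, 0.19 and 0.18 in the diet group, 0.03, 0.15 and 0.07 in the MPTP group and -0.03, 0.07 and -0.04 in Ctrl, with 4 of 8 genes higher at an unadjusted p under 0.05 in the diet group against Ctrl. The endothelial list ran between -0.04 and 0.18 over the 9 libraries. The choroid plexus list was high in Ctrl 3 alone (2.5), and the meningeal list was low in diet 1, MPTP 1 and MPTP 2 (-1.08, -1.35 and -1.09). The part of these differences in the complex I values was not tested.

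The assembly factors build the complex without staying in it. Of 18 listed, 17 were tested and none passed, with medians of -0.03 in MPTP against Ctrl, 0.03 in the diet group against MPTP and 0.0028 in the diet group against Ctrl. In MPTP against Ctrl, Tmem126b, a factor of membrane arm assembly, averaged 44.6 ± 1.43 CPM in the MPTP group and 48.6 ± 0.56 in Ctrl (SD, n = 3 each; edgeR adjusted p = 0.904), without overlap. Ndufaf3, a Q module assembly factor, averaged 21.7 ± 0.70 CPM in the diet group and 24.6 ± 0.62 in the MPTP group (adjusted p = 0.630), and 24.5 ± 1.58 in Ctrl, and was without overlap against both. Timmdc1, a membrane arm assembly factor, averaged 19.4 ± 1.25 CPM in the diet group and 16.4 ± 1.74 in Ctrl (adjusted p = 0.753). None of these factors passed the threshold. In each comparison 5.88% of the factors tested were lower without overlap, against 5.41%, 7.1% and 6.4% of all genes, in the order of the medians. On the higher side it was 0%, 5.88% and 11.8%, against 5.14%, 6.64% and 6.28% of all genes.

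The other mitochondrially encoded proteins and the regulators of mitochondrial transcription gave no called gene either. The 6 other proteins had medians of -0.12 in MPTP against Ctrl (4 below 0), 0.09 in the diet group against MPTP (6 above 0) and 0.0028 in the diet group against Ctrl. mt-Atp8, an ATP synthase subunit whose gene overlaps mt-Atp6, averaged 1178 ± 91.8 CPM in the diet group, 1032 ± 113 in the MPTP group and 1173 ± 144 in Ctrl, and the groups overlapped. The 18 regulators had medians of -0.03, 0.0071 and -0.0041 in the same order of comparisons. Ppargc1a, the coactivator PGC-1alpha, averaged 63.6 ± 1.75 CPM in the diet group and 54.7 ± 3.35 in Ctrl, a log2 fold change of 0.22 ± 0.08 (SE; unadjusted p = 0.0215, edgeR adjusted p = 0.740). Mterf2, a mitochondrial transcription termination family member, averaged 12.5 ± 0.77 CPM in the diet group and 14.8 ± 0.60 in Ctrl, a log2 fold change of -0.24 ± 0.10 (adjusted p = 0.740). The groups did not overlap at either gene, and neither passed the threshold. In the diet group against Ctrl, 11.1% of the regulators were higher and 5.56% lower without overlap, against 6.28% and 6.4% of all genes.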

How the data were processed

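RNA of substantia nigra pars compacta was extracted with an RNeasy kit and libraries were made with NEBNext Ultra, per the labels. The authors deposited 1 table with raw counts and FPKM per gene and library, per the file headers. The build was GRCm38 (mm10), per the submitters' processing notes; no source used here names the aligner, the counter, the annotation release or the strand setting. Coordinates come from GENCODE M21 on the same build, promoters from RefSeq (GRCm38.p6). Lines without a gene name (10 of 27349) were dropped.

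In R 4.3.3, edgeR 4.0.16 fitted the deposited counts of all 9 libraries in 1 robust quasi-likelihood model with TMM scaling, for the 14949 genes whose mean FPKM reached 0.5. Adjusted p-values are Benjamini-Hochberg values over all of them, with a threshold of 0.05. CPM uses TMM-scaled library sizes (factors 0.984 to 1.02). The common biological coefficient of variation was 0.134. DESeq2 1.42.0, limma 3.58.1 on log2 FPKM (pseudocount 0.5), other scalings and filters, and leaving out each library were alternatives. No 2 libraries of a group agreed within sampling noise (lowest chi-square per degree of freedom 11.8).

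Replicate numbers come from the titles. Between the diet group and MPTP, same-numbered libraries correlated at 0.182, 0.107 and 0.113 in their deviations from group means, above the minimum of 0.1 set for pairing, and this pairing comes from the data alone. In the other comparisons the correlations ran between -0.151 and 0.078. Members and lists were chosen with earlier results of these data known. Named in full were the mt-Nd genes, 6 core subunits and, per comparison, up to 4 other nuclear members of smallest p in each direction, and of other lists members among the 3 smallest p.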

Additional observations from a re-analysis of the deposited data

How the results depend on the processing

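No complex I member was called under any setting run. The nuclear median kept its sign under every setting that kept all libraries (-0.05 to -0.03 for MPTP against Ctrl, 0.05 to 0.07 for the diet group against MPTP, 0.02 to 0.04 for the diet group against Ctrl). Leaving out single libraries gave -0.09 to 0.0082, 0.03 to 0.13 and 0.02 to 0.07 in the same order, and 15 to 32 nuclear members below 0 for MPTP against Ctrl. The mt-Nd medians without single libraries were -0.01 to 0.14, -0.08 to 0.07 and 0.0011 to 0.12.

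In the diet group against Ctrl, leaving out single libraries moved the log2 fold change of Ndufa12 between -0.224 and 0.0656, of Ndufa6 between -0.0892 and 0.0348, of Ndufa2 between -0.0668 and 0.0354 and of Ndufa7 between -0.0497 and 0.0233. The sign changed without Ctrl 2 (Ndufa6, Ndufa2, Ndufa7), diet 2 (Ndufa12, Ndufa6) or diet 3 (Ndufa2, Ndufa7). Genes called over the whole table for MPTP against Ctrl were 2, against 14 with DESeq2, 0 with limma at each of the 3 pseudocounts and 0 to 4 without single libraries. For the diet group against MPTP they were 0, against 19 with DESeq2 and 0 to 1 without single libraries. For the diet group against Ctrl they were 0, against 16 with DESeq2, 1 with no filter, 4 with only the 2 groups compared and 0 to 4 without single libraries. The cause was not tested. With the replicate number as a block, 5 genes were called for the diet group against Ctrl, no member among them, and the nuclear medians were -0.04, 0.07 and 0.03; it changed no other call. With 3 libraries a group, a member's 95% interval reached a median of 11% for the nuclear genes.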

Other observations

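Counts and FPKM of a gene in the same table imply a transcript length. For Ndufb2, Ndufa12 and Ndufv3 the highest implied length was 1.32, 1.31 and 1.17 times the lowest over the 9 libraries (at most 1.07 times for the other members), so fold changes of these 3 genes differ between counts and FPKM. Ndufa12 was at -0.16 in MPTP against Ctrl by counts (log2) and had 42.8 FPKM in MPTP 3, 55.1 in diet 2 and 69.2 to 85.1 in the other libraries. The cause was not tested.

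The FPKM of mt-Nd3 as a ratio to mt-Nd1 was 0.112, 0.114 and 0.122 in the diet group, 0.0985, 0.1065 and 0.0978 in MPTP and 0.138, 0.143 and 0.1068 in Ctrl. All MPTP libraries were below all diet and Ctrl libraries, but MPTP 2 and Ctrl 3 were nearly level. The mt-Nd4l to mt-Nd4 ratio was 0.585, 0.633 and 0.627 in the diet group, 0.582, 0.566 and 0.593 in MPTP and 0.668, 0.742 and 0.576 in Ctrl, and the groups overlapped. The ratio of mt-Nd6 to mt-Nd5 ran between 0.884 and 1.03. These ratios were looked at after the members' values were seen, with no test.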
